A study of Mus musculus with 9 samples.

Results

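Expression of 10 genes for lipid uptake, storage and efflux was examined in macrophage lines expanded ex vivo from 3 hematopoietic sites of the mouse. The genes were chosen by symbol for their roles in lipid handling: Lpl, Cd36, Fabp4, Fabp5, Plin2, Soat1, Abca1, Abcg1, Apoe and Pparg. All 10 of them were among the 24411 gene symbols of the TPM table, and all 10 were among the 11753 genes tested, those that reached 1 TPM in 3 or more of the 9 libraries. TPM is the level of a transcript as its share of all transcripts of a library, corrected for length, so levels of different genes can be compared within a library.

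The lines came from unmodified C57BL/6 mice. YS lines were expanded from yolk sac at E9.5, FL lines from fetal liver at E14.5 and BM lines from adult bone marrow, with 3 lines and 3 libraries per group. Where the levels of a group are listed below, they are in the order of its lines 1, 2 and 3. All were grown in the presence of recombinant human M-CSF, the growth factor for macrophages, and no group received another treatment. A line was the bulk culture of its own dish or well, started from cells of pooled mice, so p-values below measure the spread between cultures, which may be partly technical. The question addressed by the comparison of groups was whether macrophages of different developmental origin differ after long expansion in the same medium. Seeding density, culture vessels and the time to stable growth differed between the groups, so origin and culture history cannot be told apart. In bulk RNA, fewer cells expressing a gene and less of its RNA per cell cannot be told apart.

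Macrophages take up lipid as lipoproteins, as fatty acids released from them, and as the membranes of engulfed cells. Lipoprotein lipase frees fatty acids outside the cell, CD36 takes up fatty acids and oxidized lipoproteins, FABP4 and FABP5 carry fatty acids in the cytosol, SOAT1 esterifies cholesterol, and PLIN2 coats the droplets in which the esters are stored. The transporters ABCA1 and ABCG1 and the apolipoprotein APOE carry cholesterol out again. The nuclear receptor PPARγ, encoded by Pparg, is known to bind DNA with RXR at direct repeats and to drive Cd36, Fabp4 and Plin2, while LXR with RXR drives Abca1, Abcg1 and Apoe.

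The label of the cells as macrophages was checked first. The 8 macrophage markers all reached 1 TPM in every group. Csf1r, which encodes the M-CSF receptor, lay between 1086 and 1889 TPM in the YS lines, between 2145 and 2441 TPM in the FL lines and between 1811 and 1879 TPM in the BM lines. Of the 8 markers, 2 were called in each comparison by the test described below: Fcgr1 and Lyz2 between YS and BM lines, Fcgr1 and Mertk between FL and BM lines, and Lyz2 and Mertk between YS and FL lines. In the same order, 12.8%, 10.3% and 3.79% of all genes tested were called. Fcgr1, an Fc receptor gene, lay between 122 and 329.9 TPM in the YS lines, between 110.1 and 172 TPM in the FL lines and between 1.68 and 42.1 TPM in the BM lines. Lyz2, which encodes lysozyme, lay between 1163 and 3531 TPM in the YS lines, between 5806 and 21976 TPM in the FL lines and between 5986 and 7841 TPM in the BM lines. Their part in the differences below was not tested. Since several of the 10 genes are also adipocyte genes, 6 adipocyte markers were examined: they summed to at most 1.13 TPM in the YS lines, 0.58 TPM in the FL lines and 0.27 TPM in the BM lines, and Lep and Cfd were listed at 0 in all lines. Pearson's r of log2(TPM + 1) between pairs of libraries was between 0.847 and 0.985. The highest r was that of BM lines 1 and 3, which had the same TPM for 238 of the tested genes. BM lines 1 and 2 shared 57 such values, BM lines 2 and 3 shared 44, and no other pair shared more than 97. The spread among the BM lines thus includes a close pair, and the cause was not tested. YS line 1 had the lowest r with BM lines. It was also the lowest of all lines for the macrophage markers Csf1r, Cd68 (1018 TPM) and Lyz2, but not for the other macrophage markers. BM line 2 held 215 TPM of Hba-a1, a globin gene that was at 0.30 TPM in the other BM lines. Calls that change without either line are therefore named below. The number of genes above 0 was between 13345 and 14322 per library, and the number of reads is not known from TPM.

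Promoters are shown for 4 genes known to respond to these nuclear receptors, each with its closest match to a repeat that they bind. RefSeq starts of GRCm38.p6 were available for 6 of the 10 genes (Cd36, Plin2, Soat1, Abca1, Apoe and Pparg, 10 windows in all). Each window of 300 bases, from 250 before to 50 after a start, was searched on both strands for AGGTCANAGGTCA (DR1) and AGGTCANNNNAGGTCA (DR4). The 250 bases before the start are printed on the strand of the gene, with the closest match in capitals.
Cd36, DR1: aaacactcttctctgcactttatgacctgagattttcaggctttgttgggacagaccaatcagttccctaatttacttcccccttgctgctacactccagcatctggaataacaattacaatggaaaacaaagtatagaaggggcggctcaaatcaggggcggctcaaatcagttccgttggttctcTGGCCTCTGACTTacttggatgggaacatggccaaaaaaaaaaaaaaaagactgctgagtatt
Plin2, DR1: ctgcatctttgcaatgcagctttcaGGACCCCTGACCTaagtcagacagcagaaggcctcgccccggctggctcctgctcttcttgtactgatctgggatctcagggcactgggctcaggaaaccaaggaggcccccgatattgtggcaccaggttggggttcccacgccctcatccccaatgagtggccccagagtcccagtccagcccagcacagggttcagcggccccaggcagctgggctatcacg
Abca1, DR4: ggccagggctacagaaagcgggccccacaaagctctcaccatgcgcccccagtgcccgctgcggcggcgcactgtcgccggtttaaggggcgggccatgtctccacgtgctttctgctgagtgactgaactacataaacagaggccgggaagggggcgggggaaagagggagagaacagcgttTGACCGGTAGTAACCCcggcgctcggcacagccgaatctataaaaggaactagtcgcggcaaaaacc
Apoe, DR1: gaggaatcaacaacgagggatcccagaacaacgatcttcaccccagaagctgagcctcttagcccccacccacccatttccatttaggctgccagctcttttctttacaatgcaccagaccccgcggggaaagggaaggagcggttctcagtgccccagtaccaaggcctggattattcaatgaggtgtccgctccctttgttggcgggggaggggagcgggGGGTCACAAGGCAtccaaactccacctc

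The Cd36 stretch is chr5:17835897-17836146, minus strand. Its match began 63 bases before the start and differed from DR1 at 2 bases. The Plin2 stretch is chr4:86670060-86670309, minus strand, and also had 2 mismatches to DR1, at 225 bases before the start. A DR1 with at most 2 mismatches was found in 3.86% of the 32851 RefSeq promoters of the same length. The Abca1 stretch is chr4:53159896-53160145, minus strand, with 3 mismatches to DR4 at 67 bases before the start, and 21.9% of promoters had as close a match. The Apoe stretch, chr7:19699189-19699438 on the minus strand, is the one before the most upstream of its 3 annotated starts. It had 3 mismatches to DR1 at 28 bases, and 24.6% of promoters had as close a match. That share is for 1 repeat in a single window, whereas the match shown is the closest of the 3 Apoe windows. Each other Apoe window had 5 mismatches to DR1. The closest DR4 had 4 mismatches in each Apoe window, and 76.9% of promoters had as close a match. The 3 Pparg windows held no DR1 with fewer than 4 mismatches, and 1 of them held a DR4 with 3. These matches describe letters in the windows and not sites of binding.

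Lpl, the lipase, differed most among the groups. It was at 1674, 1306 and 1693 TPM in the BM lines, at 1584, 842 and 201 TPM in the YS lines, and at 321, 64.8 and 41.8 TPM in the FL lines. All FL lines lay below all BM lines, whereas YS line 1 lay among the BM lines and YS line 3 below FL line 1. The lipase transcript was thus abundant and uniform in BM lines and varied 7.86-fold among YS lines and 7.68-fold among FL lines. Between the FL and BM lines the log2 fold change was -4.00 (standard error, SE, 0.86, adjusted p = 0.0132), a 16.0-fold lower level in FL lines. The p-value is from limma, adjusted over all genes tested. A gene was called when its adjusted p was under 0.1 and the change exceeded 2-fold, on the log2(TPM + 1) scale, which understates changes of genes at low TPM. Leaving out any 1 of the 9 lines kept this call, with log2 fold changes from -4.87 to -3.41.

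YS lines were not called against BM lines for Lpl (log2 fold change -1.26, 95% interval -3.21 to 0.69, adjusted p = 0.296), nor without YS line 1 (-1.91, adjusted p = 0.143). They were called higher than FL lines, by 2.74 on the log2 scale (SE 0.86, adjusted p = 0.0952), although the groups overlapped. The last call was lost when any of YS lines 1 and 2, FL lines 2 and 3 or BM lines 1 to 3 was left out, with adjusted p between 0.142 and 0.253. Without YS line 1 the difference was 2.09 (adjusted p = 0.189), and without BM line 2 the adjusted p was 0.142.

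**Figure D1:**
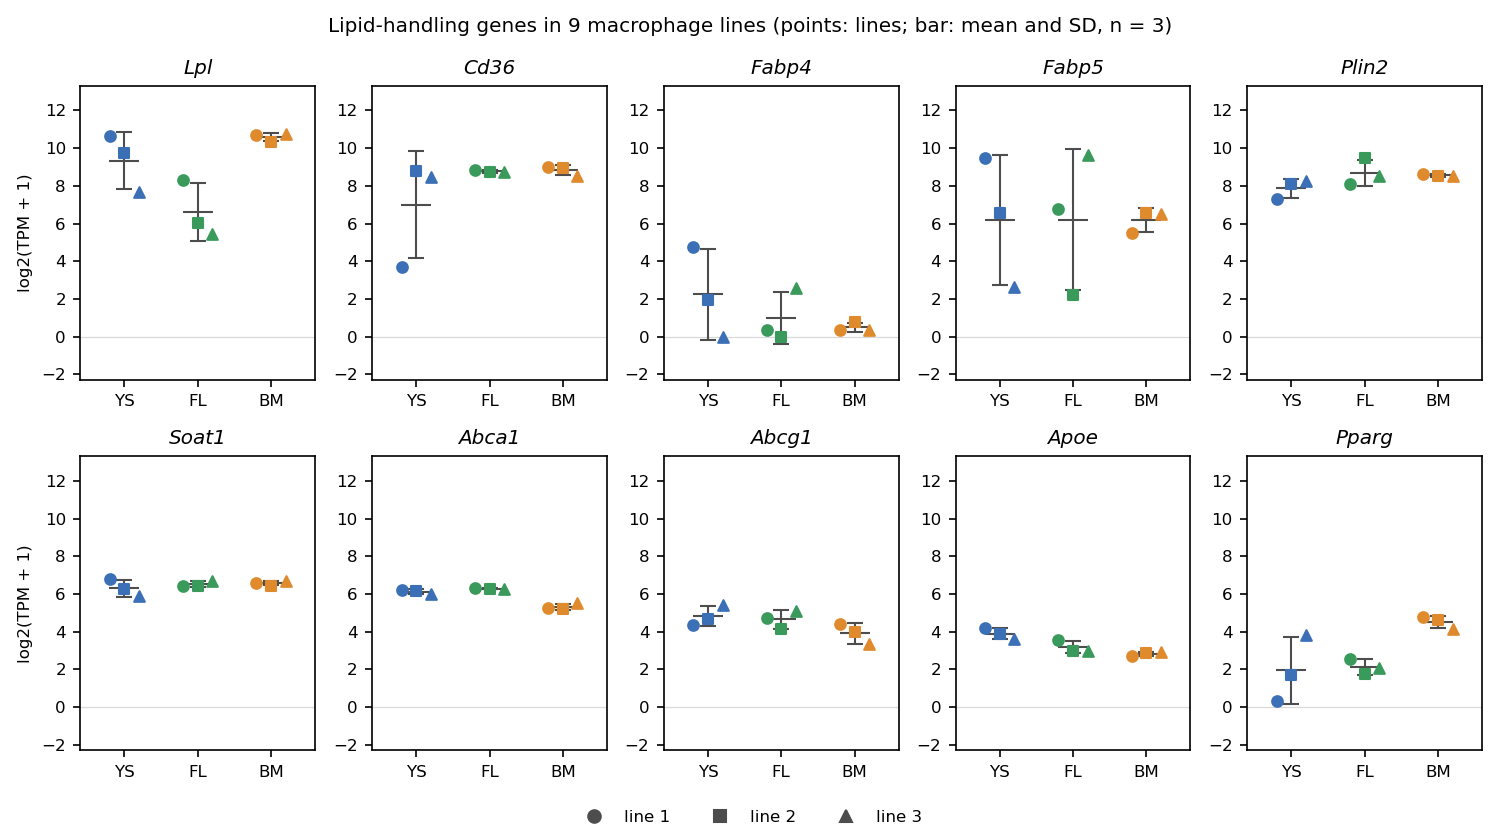
Levels of the 10 genes in each line, as log2(TPM + 1) on the vertical axis, with 1 panel per gene and 1 point per line (blue YS, green FL, orange BM). Horizontal bars are group means and error bars SD (n = 3 lines). Abca1, Apoe and Pparg separate BM lines from all other lines, Lpl separates BM lines from FL lines only, and Fabp5 spreads over most of the axis within YS and FL lines.

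Cd36, the scavenger receptor and fatty acid translocase, was at a like level in 8 of the 9 lines. The BM lines had 519.6, 486 and 372 TPM, and the FL lines had 461, 419 and 424 TPM. YS lines 2 and 3 had 439 and 359 TPM, and YS line 1 had 12.1 TPM. The YS lines therefore differed by 36.3-fold among themselves, and the low value was that of a single line. No comparison passed the test. The log2 difference between the YS and BM lines was -1.84 with all lines (95% interval -4.40 to 0.73, adjusted p = 0.250) and -0.19 without YS line 1. For the FL against the BM lines it was -0.07 (95% interval -2.63 to 2.5).

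The fatty acid chaperones varied between lines more than between groups. Fabp5 was at 706, 92.0 and 5.09 TPM in the YS lines, and at 109, 3.66 and 787 TPM in the FL lines. The BM lines had 43.5, 94.97 and 90.5 TPM and lay inside the range of both other groups. Among the lines, Fabp5 thus varied 139-fold in YS, 215-fold in FL and 2.19-fold in BM. The log2 differences between groups were between 0.00 and 0.02 in size, with an SE of 2.01. Reads of Fabp5 could be shared with a pseudogene copy that RefSeq annotates, and its level is uncertain for that reason.

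Fabp4, the adipocyte and macrophage form, was low in all lines. It had 26.3 and 2.86 TPM in the first 2 YS lines and was listed at 0 in YS line 3. FL line 3 had 4.96 TPM, FL line 1 had 0.28 TPM and FL line 2 was listed at 0. The BM lines had 0.26, 0.72 and 0.26 TPM. The lines with the highest Fabp4 of their group, YS line 1 and FL line 3, were also those with the highest Fabp5, and the 2 lines at 0 were those with the lowest Fabp5 of their group. Where Fabp4 was above 0, Fabp5 exceeded it by between 26.9-fold and 389-fold. Fabp4 was not called between the YS and BM lines with all lines (log2 fold change 1.76, adjusted p = 0.263), but was called without YS line 3 (2.88, adjusted p = 0.0593). With array weights on all lines it was also called (1.47, adjusted p = 0.0589). It reached 1 TPM in YS lines 1 and 2 and FL line 3 alone, and therefore had no fit without any of these 3 lines.

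Of the genes for storage, Plin2 had higher levels than Soat1 in every line, by between 1.45-fold in YS line 1 and 8.30-fold in FL line 2. Plin2 was at 158, 269.7 and 301 TPM in the YS lines, at 275, 710.4 and 361 TPM in the FL lines and at 398, 372 and 363 TPM in the BM lines. All YS lines lay below all BM lines, but the difference did not pass the test (log2 fold change -0.69, SE 0.35, adjusted p = 0.170). FL lines spanned the BM values and had both the lowest and the highest of these 6 lines. Between the YS and FL lines the log2 difference was -0.82 (adjusted p = 0.183). It was called in 1 of the alternatives, without FL line 1 (-1.11, adjusted p = 0.0962).

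Soat1 varied little, at most 1.88-fold within a group. The YS lines had 109, 74.8 and 58.2 TPM, the FL lines had 84.0, 85.6 and 104 TPM, and the BM lines had 96.2, 86.6 and 102 TPM. The groups overlapped in all 3 comparisons. The intervals of the log2 differences reached from -0.75 to 0.20 between the YS and BM lines and from -0.54 to 0.42 between the FL and BM lines, so a change of more than 2-fold lay outside both. Without YS line 1, the highest of all lines, the difference between the YS and BM lines was -0.52 (adjusted p = 0.0394), against -0.28 (adjusted p = 0.349) with it, and was less than 2-fold in both.

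Of the efflux genes, Abca1 was higher in both embryo-derived groups and Apoe in the YS lines. Abca1 was at 73.7, 71.1 and 62.8 TPM in the YS lines, at 77.5, 75.2 and 76.4 TPM in the FL lines, and at 37.9, 35.5 and 44.6 TPM in the BM lines. Every YS and FL line lay above every BM line, and the range within each group was narrow. The log2 difference was 0.80 between the YS and BM lines (SE 0.11, adjusted p = 0.00291) and 0.95 between the FL and BM lines (SE 0.11, adjusted p = 0.00135). These are 1.75-fold and 1.93-fold, and thus passed the false discovery rate but not the 2-fold threshold. The FL difference was called without BM line 3 (1.04, adjusted p = 0.00669). Both comparisons use the same BM lines. YS and FL lines did not differ beyond their error (log2 difference -0.14, 95% interval -0.40 to 0.12, adjusted p = 0.45), although all YS lines were lower than all FL lines.

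Abcg1, the partner of ABCA1 that loads mature HDL, was at 19.8, 24.4 and 42.1 TPM in the YS lines, at 25.6, 16.6 and 32.9 TPM in the FL lines and at 20.0, 15.1 and 9.06 TPM in the BM lines. The groups overlapped. The log2 difference between the YS and BM lines was 0.91 (SE 0.37, adjusted p = 0.0967), short of 2-fold, and it was called without YS line 1 (1.14, adjusted p = 0.0679) or without BM line 1 (1.15, adjusted p = 0.0942). Without BM line 2 it was 0.96 (adjusted p = 0.161). Between the FL and BM lines it was 0.74 (adjusted p = 0.198). Abca1 exceeded Abcg1 in every line, from 1.49-fold in YS line 3 to 4.92-fold in BM line 3.

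Apoe, which encodes the apolipoprotein that macrophages secrete with cholesterol, was low in these lines. It was at 17.2, 13.9 and 11.1 TPM in the YS lines, at 10.9, 6.97 and 7.01 TPM in the FL lines, and at 5.45, 6.21 and 6.5 TPM in the BM lines. No groups overlapped: the order was YS, FL and BM. Apoe was called higher in YS than in BM lines, by 1.07 on the log2 scale (SE 0.21, adjusted p = 0.00917). Between the YS and FL lines the difference was 0.70 (adjusted p = 0.0909, or 0.160 without YS line 1 and 0.142 without BM line 2), less than 2-fold, and between the FL and BM lines it was 0.37 (adjusted p = 0.259), so that FL and BM lines were not separated beyond their error. The 2-fold call of YS over BM lines rested on a small margin. It fell to 0.93 (adjusted p = 0.0188) without YS line 1, and to 0.96 with quantile normalization. Without BM line 2 it was 1.09 (adjusted p = 0.0282).

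Pparg, the receptor gene, was lower in both embryo-derived groups than in the BM lines. It was at 26.2, 23.6 and 16.7 TPM in the BM lines, at 4.97, 2.43 and 3.14 TPM in the FL lines and at 0.25, 2.26 and 13.0 TPM in the YS lines. Every BM line was above every other line, YS line 3 came nearest, and the YS lines differed by 52-fold. The log2 difference was -2.57 between the YS and BM lines (SE 0.73, adjusted p = 0.0324), and -2.38 between the FL and BM lines (SE 0.73, adjusted p = 0.0523), which are called decreases of 5.93-fold and 5.19-fold. YS and FL lines were not separated (log2 difference -0.19, 95% interval -1.85 to 1.47). The call of FL lines was lost when FL line 2 or 3 or any BM line was left out, with adjusted p between 0.112 and 0.155, and that of YS lines when BM line 1 was left out (adjusted p = 0.103). The directions stayed the same, with values without a line from -3.50 to -1.76 and from -2.60 to -2.20. Without YS line 1 the YS difference was -1.76 (adjusted p = 0.0534), and without BM line 2 it was -2.51 (adjusted p = 0.0825).

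**Figure D2:**
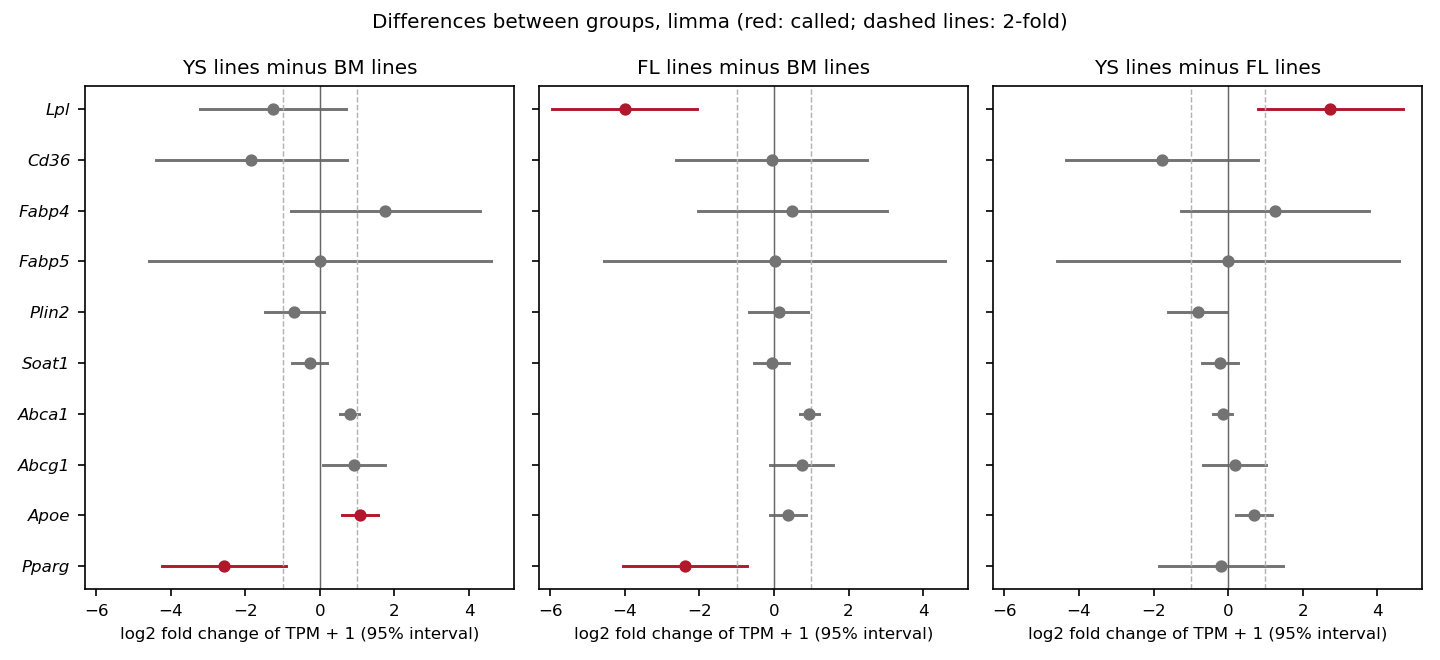
Log2 fold changes of TPM + 1 with 95% intervals (horizontal axis) for the 10 genes in the 3 comparisons, from the limma fit to all 9 lines. Red marks called genes and dashed lines mark 2-fold. Lpl is at -4.00 in FL against BM lines, Pparg is below -2 in both comparisons with BM lines, and the intervals of Fabp5 reach beyond 4 on both sides.

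Of the 10 genes, 2 were called in YS against BM lines, beside 12.8% of all genes tested. These were Apoe, higher as were 7.57% of all genes, and Pparg, lower as were 5.22%. In FL against BM lines 2 were called, Lpl and Pparg, beside 10.3% of all genes. Both were lower, the direction of 4.3% of all genes, and 6.01% were called higher. In YS against FL lines Lpl was the 1 gene called, beside 3.79% of all genes. It was higher, as were 1.95%, and 1.85% were called lower. The groups did not overlap for 4, 4 and 2 of the 10 genes in these comparisons, against 49%, 49.5% and 26.1% of all genes tested, so the share of genes with separate groups was not above that of the whole table. In the moderated F-test over the 3 groups, 4 of the 10 passed an adjusted p of 0.1 (Abca1 0.00227, Apoe 0.0168, Lpl 0.0216 and Pparg 0.0432), beside 43.8% of all genes tested. The median log2 fold change of the 10 genes was -0.13, 0.07 and -0.07 in the same order, against 0.11, 0.09 and 0.02 over all genes.

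The spread within a group was large for these genes. The SD of log2(TPM + 1) was above the median of all tested genes for 9 of the 10 genes within the YS lines, for 7 within the FL lines and for 8 within the BM lines. Their median SD was 1.03, 0.44 and 0.23 in the same order, and that of all tested genes was 0.28, 0.18 and 0.11. YS line 1 was the lowest of all lines for Cd36, Plin2 and Pparg, and the highest of all lines for Fabp4, Soat1 and Apoe. FL line 3 was the highest for Fabp5 and the lowest for Lpl.

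**Figure D3:**
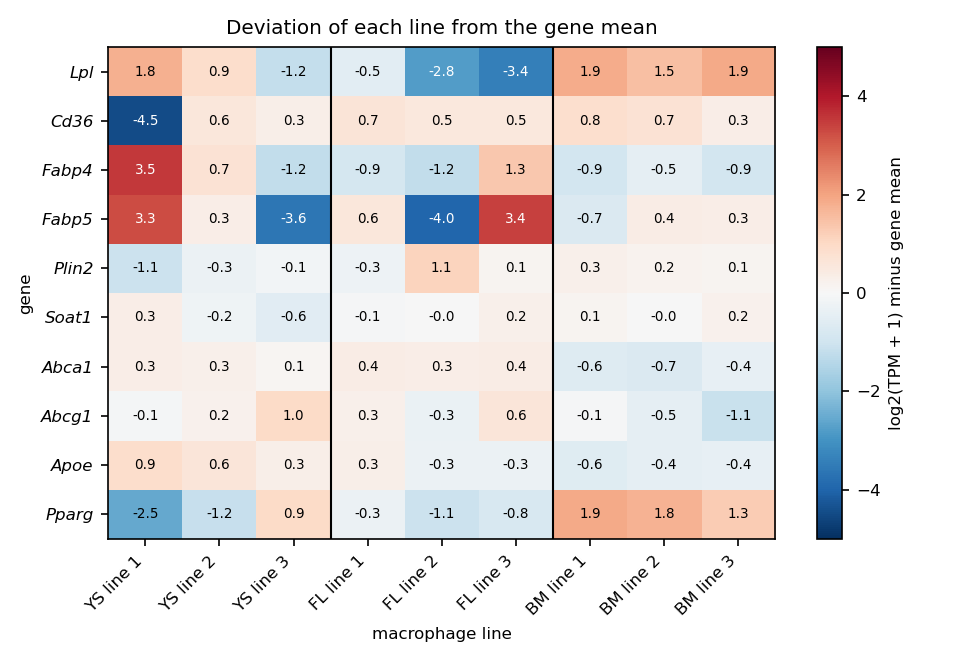
Deviation of each line (columns) from the mean of the gene over all 9 lines (rows), on the log2(TPM + 1) scale, printed in each cell and coloured from blue (below) to red (above). BM lines are alike in most rows, YS line 1 is lowest for Cd36, and Fabp5 is far above its mean in YS line 1 and FL line 3 and far below it in YS line 3 and FL line 2.

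Since TPM is corrected for length, the 10 levels could be added up in each line. Their sum was 2706, 1831 and 1054 TPM in the YS lines, 1369, 1384 and 1842 TPM in the FL lines and 2821, 2427 and 2697 TPM in the BM lines. Every BM line exceeded every FL line, and YS line 1 lay among the BM lines. Lpl made up 59.3%, 53.8% and 62.8% of the sum in BM lines 1 to 3, but 23.4%, 4.68% and 2.27% in the FL lines, and 58.5%, 46.0% and 19.1% in the YS lines. Lpl was the highest of the 10 genes in all BM lines and in YS lines 1 and 2. The highest was Cd36 in YS line 3 and FL line 1, Plin2 in FL line 2 and Fabp5 in FL line 3, so no gene led in all FL lines. Apoe made up at most 1.05% of the sum in any line. In BM lines Lpl ranked above at least 99.6% of the genes of the table, whereas in FL lines 2 and 3 it ranked above 88.0% and 82.4%.

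**Figure D4:**
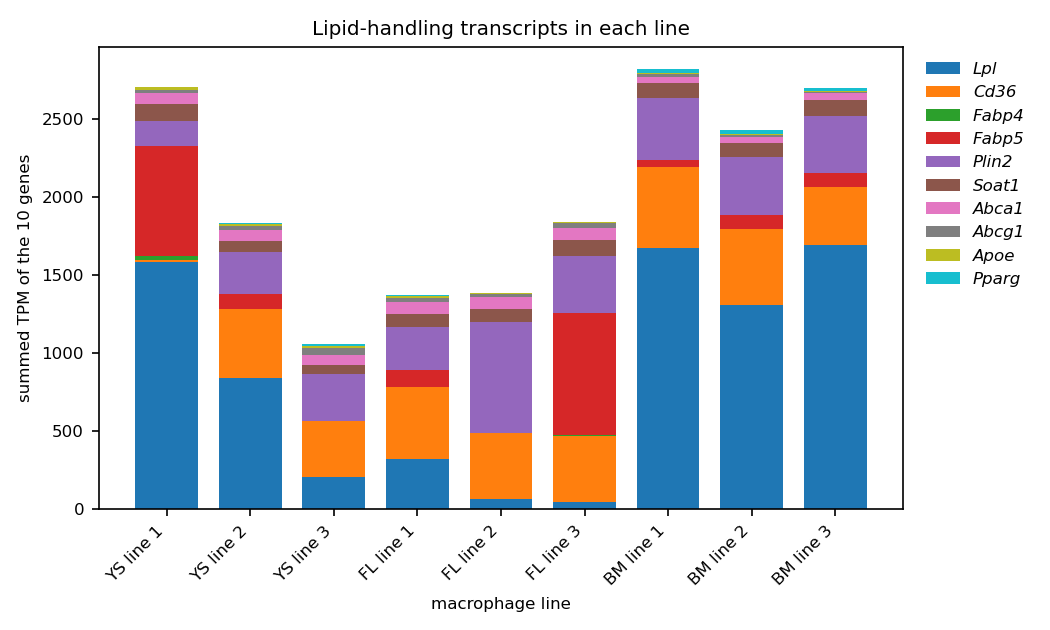
Summed TPM of the 10 genes in each line (vertical axis), with the part of each gene in its own colour. The bars of the BM lines and of YS line 1 are mostly Lpl, at 53.8% to 62.8% of the sum, and the 3 FL bars differ from each other in their largest part.

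The genes with the most similar pattern were sought for the 3 called genes, as those with the smallest root-mean-square difference of log2(TPM + 1), centred on each gene, over the 9 lines. For Lpl they were Gpr132 (0.71), a lipid-sensing G protein-coupled receptor, and Pde2a (0.80), a cyclic nucleotide phosphodiesterase, where the median of all tested genes was 2.00. Gpr132 lay between 10.6 and 15.7 TPM in the BM lines, between 1.75 and 22.2 TPM in the YS lines and reached no more than 0.20 TPM in the FL lines. For Pparg they were Cd93 (0.40) and Enho (0.51), with a median of 1.53. Cd93, a receptor of myeloid and endothelial cells, was at 108, 103 and 117 TPM in the BM lines, and its highest value elsewhere was 60.9 TPM in YS line 3, the YS line with the most Pparg. For Apoe they were Rpusd4 and Cdca7, at 0.11 each where the median was 0.55.

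Other genes of the same pathways were taken from 7 lists. They held 94 genes besides the 10, of which 65 were tested. In YS against BM lines 11 of the 65 were called, 5 higher and 6 lower (12.8% of all genes tested were called). In FL against BM lines 13 were called, 10 higher and 3 lower, beside 10.3%, and in YS against FL lines 5 were called, all lower in YS lines, beside 3.79%. The medians of the log2 fold changes were -0.05, 0.05 and -0.09 in the same order.

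Of the nuclear receptors and coregulators, 11 of 14 were tested. Ppard, the ubiquitous PPAR, ran opposite to Pparg: it was at 27.0, 12.8 and 8.32 TPM in the YS lines, at 16.0, 15.0 and 13.7 TPM in the FL lines and at 5.75, 6.76 and 5.13 TPM in the BM lines. No YS or FL line was as low as a BM line, and it was called higher in YS lines (log2 fold change 1.16, adjusted p = 0.0368) and in FL lines (1.21, adjusted p = 0.0400). These calls were lost without YS line 1 (0.73) or BM line 1 or 3 in YS lines, and without FL line 1 or BM line 1 or 3 in FL lines. Rxra, the RXR partner, was called higher in FL lines at 61.8 ± 9.63 TPM against 27.7 ± 2.74 TPM in the BM lines (SD, n = 3; adjusted p = 0.0306). Cebpa, which with PPARγ drives adipocyte genes, was also called in FL lines, at 121 ± 45.1 against 39.6 ± 1.31 TPM (adjusted p = 0.0599). Rxra lost its call without BM line 1, and Cebpa without FL line 2 or 3 or any BM line. The heme receptor gene Nr1d1 was called lower in YS than in BM lines (log2 fold change -1.05, adjusted p = 0.0664) and lost that call without YS line 1 (-0.62) or any BM line. Of the LXR genes, Nr1h2 lay between 68.2 and 110.1 TPM over the 9 lines, and Nr1h3 at 1.56 TPM or less.

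For lipoprotein and scavenger uptake, 9 of 11 genes were tested, of which 3, 4 and 2 were called between YS and BM, FL and BM, and YS and FL lines. Of all genes tested, 12.8%, 10.3% and 3.79% were called in the same order. Msr1, the class A scavenger receptor, was at 358, 559 and 433 TPM in the YS lines, at 702, 713 and 658 TPM in the FL lines, and at 158, 223 and 115 TPM in the BM lines. All YS and FL lines were above all BM lines, by 1.47 (adjusted p = 0.00464) and 2.11 (adjusted p = 0.00114) on the log2 scale. Colec12, a collectin scavenger receptor, was at 700.3, 537 and 253 TPM in the YS lines and at 1064, 1620.2 and 86.9 TPM in the FL lines. BM lines 1 and 3 had 0.22 and 0.13 TPM, whereas BM line 2 had 86.2 TPM, close to FL line 3. Its log2 fold change was 6.54 in YS lines and 6.76 in FL lines, and 8.61 and 8.83 without BM line 2. Lrp1, the large receptor for APOE-bearing remnants, was called lower in YS lines at 350 ± 29.4 against 709.8 ± 59.6 TPM in the BM lines (SD, n = 3; log2 fold change -1.02, adjusted p = 0.00129), and fell short of 2-fold without YS line 1 or 3 or BM line 1 or 3 (at least 0.97 in size).

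Marco was high in FL lines, at 80.6, 678 and 464 TPM in lines 1 to 3, against 9.21 to 30.5 TPM in the BM lines, and was at 0.29, 61.8 and 4.14 TPM in the YS lines. It was called in FL against BM lines (log2 fold change 3.86, adjusted p = 0.0764) and in YS against FL lines (-5.31, adjusted p = 0.0591). The first call was lost without FL line 2 or 3 or any BM line, and the second without YS line 1, FL line 2 or 3, or BM line 1. Stab1, a scavenger receptor of sinusoidal cells and macrophages, was at 129.6, 166 and 112 TPM in the FL lines, at 33.1, 74.5 and 38.2 TPM in the YS lines and at 30.6, 42.2 and 33.5 TPM in the BM lines. FL lines lay above all other lines, and were called against BM lines (log2 fold change 1.90, adjusted p = 0.00333) and against YS lines (-1.54 in YS minus FL, adjusted p = 0.0320). The first call was kept in each fit that left a line out, and the second was lost without FL line 2 (-1.38, adjusted p = 0.107).

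Markers of other cells also differed between the groups. Of the neutrophil markers, S100a8 was at 10.5 to 25.1 TPM in the FL lines and at most 5.00 TPM elsewhere, while S100a9 and Elane were listed at 0 in all lines. The 5 endothelial markers summed to between 30.1 and 56.0 TPM in the YS lines, between 18.97 and 51.8 TPM in the FL lines and between 0.22 and 3.20 TPM in the BM lines. Of these, Kdr was at 0.29, 16.1 and 54.4 TPM in the YS lines, at 17.4, 17.5 and 50.4 TPM in the FL lines and at 0.86 TPM or less in the BM lines, Pecam1 and Tie1 reached at most 0.25 and 1.54 TPM in the FL lines and 8.17 and 25.8 TPM in the YS lines, and Tek was at 0.04 TPM or less. S100a8 was thus high in the FL lines, as were Marco and Stab1, but S100a9, Elane and Mpo (0.07 TPM or less) were not. The endothelial sum was high in the YS and FL lines, as were Msr1 and Colec12. That sum was mostly Kdr, or Tie1 in YS line 1, and Cdh5 was at 1.38 TPM or less in all lines. Whether such cells were present, and their part in the differences, was not tested.

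The partners of lipoprotein lipase gave 0 calls by limma in each comparison, with 5 of 10 genes tested and 1, 2 and 2 of them at an unadjusted p under 0.05 in YS against BM, FL against BM and YS against FL lines. Beside these, 12.8%, 10.3% and 3.79% of all genes tested were called. The factors that fold and release the enzyme in the endoplasmic reticulum were expressed in all lines, with Lmf1 between 13.6 and 23.99 TPM and Sel1l between 82.3 and 101 TPM. Gpihbp1, which holds the lipase on capillary endothelium, was listed at 0 in all lines. The lipase inhibitor gene Angptl4 was at 2.73 TPM or less. Apoc2, 1 of the genes tested, varied between lines. It was at 21.2, 2.65 and 0.34 TPM in the YS lines and at 1.27, 20.4 and 10.7 TPM in the FL lines. In the BM lines it was at 0.87, 0 and 1.45 TPM.

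For fatty acid uptake and activation, 12 of 14 genes were tested. Fabp3, the heart form of the chaperones, was at 180.4, 48.7 and 15.2 TPM in the YS lines, at 25.0, 81.3 and 68.5 TPM in the FL lines and at 6.65, 16.1 and 2.05 TPM in the BM lines. It was called higher in YS lines (log2 fold change 2.84, adjusted p = 0.0494) with overlap through YS line 3, and in FL lines (2.85, adjusted p = 0.0613) without overlap. The YS call was lost without YS line 1 (1.94) or BM line 1 or 3, and the FL call without FL line 2 or 3 or BM line 1 or 3. Fabp7, the brain form, was at 9.70, 19.3 and 58.5 TPM in the FL lines and at 0.40 TPM or less in every other line, and was called in FL against BM lines (log2 fold change 4.21, adjusted p = 0.00153) and in YS against FL lines (-4.45, adjusted p = 0.0076). Fabp7 reached 1 TPM in the 3 FL lines alone and so passed the filter through the group where it was high, and it had no fit without an FL line. Acsl3, a long-chain acyl-CoA synthetase of lipid droplets, was called in YS lines at 46.3 ± 23.3 against 13.1 ± 1.32 TPM in the BM lines (SD, n = 3; adjusted p = 0.00866). It was also called in FL lines, at 29.4 ± 8.87 TPM (log2 fold change 1.08, adjusted p = 0.0480), and this call was lost without FL line 1 (0.86) or any BM line, and with quantile normalization (0.99) or median-of-ratios scaling (0.98). Slc27a1, a fatty acid transport protein, was lower in FL lines at 184 ± 57.0 against 379 ± 30.5 TPM in the BM lines (adjusted p = 0.0119), short of 2-fold without FL line 2 (-0.91).

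Of 20 genes for triglyceride and droplet assembly, 13 were tested, with 1 called between the YS and BM lines, 0 between the FL and BM lines and 2 between the YS and FL lines. The 0 is by limma, and 4 of the 13 had an unadjusted p under 0.05 there. Calls over all genes tested were 12.8%, 10.3% and 3.79% in the same order. Plin3, a droplet coat protein related to PLIN2, was at 73.6, 42.0 and 24.1 TPM in the YS lines, at 114, 116 and 164 TPM in the FL lines and at 110.2, 84.0 and 98.9 TPM in the BM lines. YS lines lay below all others, and were called against BM lines (log2 fold change -1.18, adjusted p = 0.0356) and against FL lines (-1.60, adjusted p = 0.0449). The first call was lost without YS line 3 (-0.79) or BM line 1 or 3, and the second without FL line 2 or 3. Agpat2, an acyltransferase of triglyceride synthesis, was lower in YS than in FL lines at 25.4 ± 9.17 against 57.6 ± 2.77 TPM (adjusted p = 0.0364), and its call was lost without YS line 3 or FL line 2 or 3. Plin1, the adipocyte coat protein, was at 0.10 TPM or less.

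Of 11 genes for lipolysis and cholesteryl ester hydrolysis, 8 were tested, and Lipa and Npc1 were called, both higher in the BM lines. In YS against BM lines 2 of the 8 were called, beside 12.8% of all genes tested. In FL against BM lines 1 was called, beside 10.3%. Lipa, the lysosomal acid lipase that hydrolyses cholesteryl esters, was at 144, 284 and 406 TPM in the YS lines, at 261, 307 and 336 TPM in the FL lines and at 999.8, 921 and 1019.6 TPM in the BM lines. No YS or FL line came near a BM line. The log2 fold change was -1.94 in YS lines (adjusted p = 0.00473) and -1.70 in FL lines (adjusted p = 0.00745), and both calls were kept in each fit that left a line out. Npc1, which exports the freed cholesterol from the lysosome, was called lower in YS lines, at 94.3 ± 13.25 against 243 ± 22.5 TPM in the BM lines (SD, n = 3; log2 fold change -1.36, adjusted p = 0.000645). Npc1 was not called in FL against BM lines. Its FL levels of 171, 178 and 191 TPM nevertheless all lay below its BM levels of 262, 218 and 249 TPM.

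Of the list for cholesterol efflux and oxysterols, 7 of 14 genes were tested and Abca5 was the only one called. The share of all genes called was 12.8% in YS and 10.3% in FL against BM lines. Abca5 was at 1.07, 3.88 and 4.12 TPM in the YS lines, at 2.13, 4.21 and 4.84 TPM in the FL lines and at 15.5, 11.4 and 15.5 TPM in the BM lines. This transporter of the ABCA family thus ran opposite to Abca1, with log2 fold changes of -2.01 in YS lines (adjusted p = 0.00782) and -1.71 in FL lines (adjusted p = 0.0154). Both calls were kept in each fit that left a line out. Ch25h, which makes the oxysterol 25-hydroxycholesterol, went with single lines: it was at 3.71, 90.6 and 193 TPM in the YS lines, at 85.8, 0.10 and 0.35 TPM in the FL lines, and at 16.1 TPM in BM line 2 while listed at 0 in BM lines 1 and 3.

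**Figure D5:**
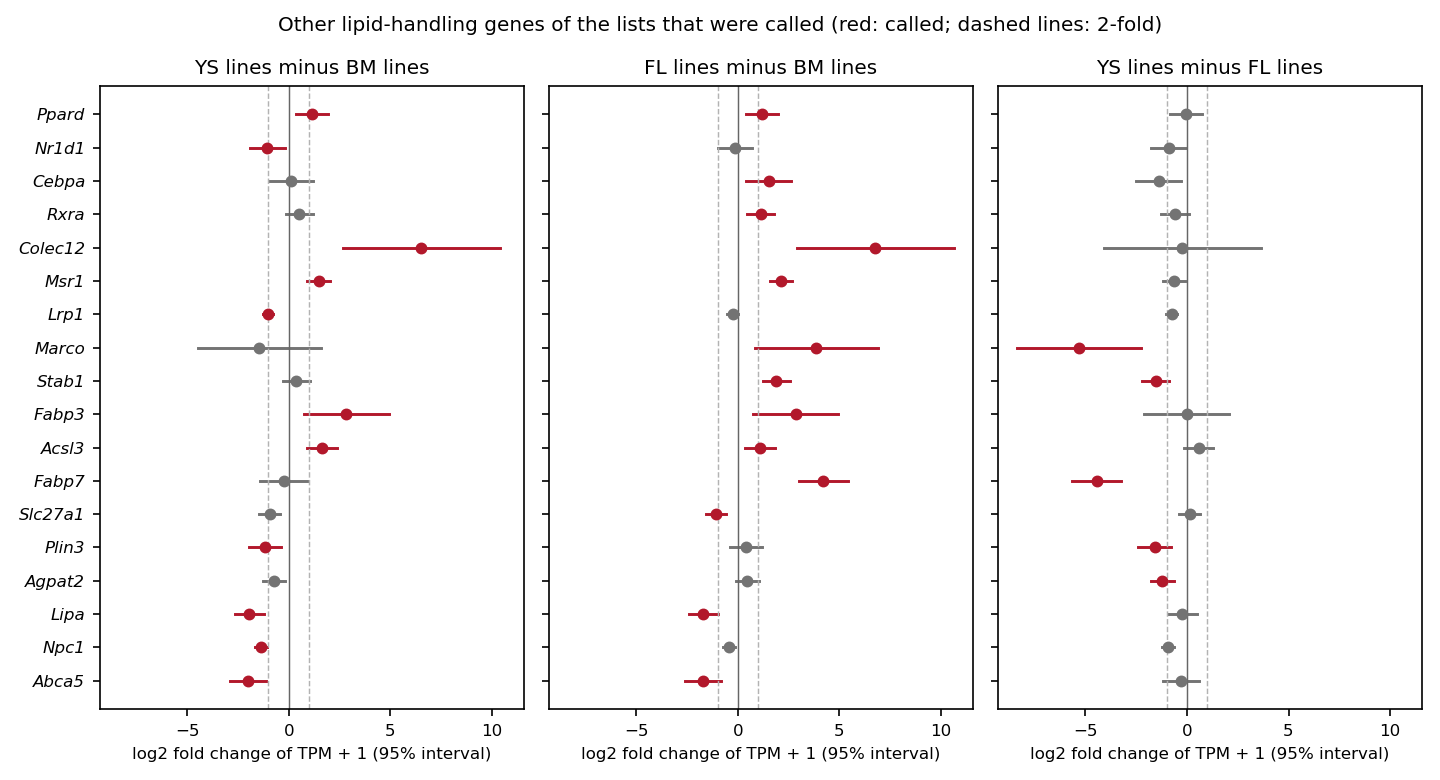
Log2 fold changes of TPM + 1 with 95% intervals (horizontal axis) for the genes of the 7 pathway lists that were called in at least 1 comparison. Red marks a call and dashed lines mark 2-fold. Lipa and Abca5 lie below 0 and Msr1 and Colec12 above 0 in both comparisons with BM lines, and the widest intervals are those of Colec12 and Marco.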

How the data were processed

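The data were 9 bulk RNA-seq libraries, 1 for each line. Poly(A) RNA was selected for directional libraries, and the authors deposited 1 table of TPM for 24411 gene symbols. The submitters' processing notes name Trim Galore 0.6.6, STAR 2.7.9a and RSEM 1.3.3, and the genome build and annotation are not given in the sources used here. The study's own tests used raw counts (iDEP with DESeq2), which were not used here. TPM keeps no depth, so no counting interval or floor is given, and a value of 0 is reported as listed at 0. TPM is relative to the total of a library, so a change in abundant genes moves the others.

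Groups and line numbers came from the sample titles. From the TPM, log2(TPM + 1) was fitted with limma 3.58.1 in R 4.3.3 to the 9 libraries together (trended empirical Bayes, two-sided, Benjamini-Hochberg within each of 3 comparisons over 11753 genes, 95% intervals). Genes were called at an adjusted p under 0.1 and more than 2-fold, the study's thresholds. An exact permutation test of 3 lines against 3 cannot go below p = 0.1. Figures were drawn with matplotlib 3.10.9.

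The 10 genes, the pathway lists and the cell type markers were chosen with earlier results of these data known. Named besides the 10 genes were up to 3 called genes with the largest change per pathway list and comparison, and the 2 nearest genes in pattern for each called member. The Stab1 and Acsl3 calls between FL and BM lines, and Nr1h2, Nr1h3, Lmf1, Sel1l, Gpihbp1, Angptl4, Apoc2, Plin1, Ch25h and the markers given, were named after their values were seen.

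The line numbers mark no stated pairs. Deviations of same-numbered lines from their group means had correlations between -0.118 and 0.088 over 9 pairs, so the lines were treated as unpaired. Alternatives changed the pseudocount, the filter, the scaling, the trend, the libraries fitted, the thresholds, a replicate block, array weights and the omission of each line.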

Additional observations from a re-analysis of the deposited data

How the results depend on the processing

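Over the 10 genes, 3 comparisons and the alternatives tried, and the named pathway genes in the comparisons where they were called, 1088 of 1221 values kept their direction and their side of the thresholds, 97 lost the call, 10 gained one and 26 changed sign. All changes of sign were in differences that had not been called. The scaling shifted the median of all genes: it was 0.11 between YS and BM lines and -0.01 after quantile normalization, and the share of called genes that were higher in YS lines went from 59.2% to 48.7%. In FL against BM lines it went from 58.3% to 50%. The precision of TPM without depth is known from the spread between 3 lines alone.

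Between YS and BM lines, 2 of the 10 genes were called. The number was 1 with a pseudocount of 4, with quantile normalization and with median-of-ratios scaling (Apoe fell below 2-fold), and 4 with no fold threshold, where 4455 of all genes passed instead of 1504. It was 3 with array weights and without YS line 3, where Fabp4 was also called. Between FL and BM lines the number was 2. It was 1 with a pseudocount of 0.1 and with an adjusted p under 0.05 (Pparg), and from 1 to 2 when a line was left out. With no fold threshold 3247 of all genes passed. Between YS and FL lines the 1 call, Lpl, became 0 without a filter on low TPM, without the intensity trend, with only the 6 libraries compared and with an adjusted p under 0.05, became 2 with no fold threshold, and ranged from 0 to 2 when a line was left out. By limma at p under 0.05 before adjustment, 3 of the 10 genes and 3016 of all genes differed between YS and FL lines. The genes called there, 446 in all, were 280 with a pseudocount of 4, 81 with the 6 libraries alone, 234 with an adjusted p under 0.05, 1500 with no fold threshold and from 175 to 549 when a line was left out. Over the alternatives, the adjusted p of Lpl there ranged from 0.0102 to 0.253. With array weights, 7 of the 10 genes passed the F-test instead of 4.

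Changes of sign were in differences of at most 0.19 in size with all lines, but the values without a line were not all small. For Fabp5 the log2 difference between YS and BM lines was -0.051 with a pseudocount of 0.1, -0.034 with quantile normalization and -0.099 with median-of-ratios scaling, and it ranged from -1.62 to 1.81 when a line was left out. Between FL and BM lines it was -0.073, -0.069 and -0.077 under the same settings and ranged from -1.69 to 2.01. Between YS and FL lines it was 0.022 with a pseudocount of 0.1 and 0.035 with quantile normalization, and ranged from -2.00 to 1.80. With array weights, Soat1 was at 0.0021 between FL and BM lines and Abcg1 at -0.11 between YS and FL lines. Pparg was at 0.045 between YS and FL lines with a pseudocount of 4. When a line was left out, Cd36 ranged from -0.21 to 0.031 and Plin2 from -0.26 to 0.42 in FL against BM lines, and Abcg1 ranged from -0.13 to 0.40 and Pparg from -1.12 to 0.62 between YS and FL lines. The cause of these changes was not tested.

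With the line number as a replicate block, 2, 2 and 1 of the 10 genes were called, and 1503, 1191 and 409 of all genes against 1504, 1211 and 446. Of the 9 lines, 2 correlated best with a line of their own number. The block changed no call of the 10 genes in the 3 comparisons.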
